A study of Homo sapiens with 9 samples.

Results

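The AP-1 subunits and other immediate early genes were followed in MP41 cells, an established uveal melanoma line with a mutated GNA11. The 10 genes were taken by symbol from the deposited table (FOS, FOSL1, FOSL2, JUN, JUNB, JUND, ATF3, EGR1, IER3, and MYC), and all 10 were among its 14839 genes. Cells grown in RPMI-1640 with foetal bovine serum were transfected with miR-CTR, a control mimic, or with synthetic miR-16, each at 66 nM with Lipofectamine RNAiMAX. PolyA RNA was sequenced at 6, 12, 24, and 48 h with each mimic, and 1 library collected before transfection (0 h), which the labels place in the miR-CTR series, served both. Each of these 9 conditions has 1 library, so that no difference at a single time has a replicate check, and the error given beside a value is the counting error of the reads alone.

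Immediate early genes are switched on by growth factors, serum, or stress without new protein synthesis, and their RNAs are short-lived. AP-1 is a dimer of a JUN protein with a FOS, a JUN, or an ATF protein, held by a leucine zipper, and it binds sites in the promoters of genes for proliferation, invasion, and stress. In uveal melanoma, mutated GNAQ or GNA11 feeds the MAP kinase cascade, which is known to drive many of these genes. The first library after transfection came at 6 h, so that a shorter burst of transcription was not sampled.

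The values are log2(normalized reads + 1). The columns of the table carry time codes rather than hours, and these were read in rising order as 0, 6, 12, 24, and 48 h, on which every time below rests. The reads recovered from the values summed to between 20270000 and 27360000 per library (a ratio of 1.35), and library medians lay between 9.13 and 9.17. All 7 melanocyte markers were present, from DCT at 12.29 or more to TYRP1 at 17.45 or more. Of 8 markers of other cell types, 2 were present, CD68 (5.46 to 5.86) and COL1A1 (8.04 to 8.86), and the other 6, PTPRC, EPCAM, KRT5, PECAM1, VWF, and RPE65, had no row. A logFC is a difference of such values, miR-16 minus miR-CTR unless another pair is named, and it is called late where averaged over 24 and 48 h. The late logFC of the melanocyte markers, miR-16 against miR-CTR, had a median of 0.05, and none of the 7 was past 0.5.

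The mimic is shown first, because its seed was looked for in the 10 genes. The mature miR-16, encoded on GRCh38.p14 at chr13:50049027-50049048 on the reverse strand and at chr3:160404754-160404775 on the forward strand, is given from RefSeq with its seed, bases 2 to 8, in capitals. The letters that pair with it, TGCTGCT or GCTGCTA, were sought in each gene's longest 3′UTR in GENCODE 29 (GRCh38). Of the 10 genes, 2 had a match, FOSL1 and FOSL2, against 29.2% of 11570 genes. FOSL1 had 1 match in a 3′UTR of 837 bases, and FOSL2 had 3 in 4864 bases, of which 1 was the full match of 8 bases. The FOSL1 match (chr11:65892288-65892294, reverse strand) and the full FOSL2 match (chr2:28417189-28417196, forward strand) are shown with the match in capitals.
miR-16: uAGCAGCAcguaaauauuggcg
FOSL1: cagcgagggcaGCTGCTAtttattttcct
FOSL2: tagaaaaagctTGCTGCTAtggaagaaaga
FOSL1 and FOSL2 were not past 0.5 in either window, as their values below show. JUN, EGR1, ATF3, MYC, and the other 4 genes had neither form of the match in the window searched.

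Per length of annotated exons, the 10 genes fell into 3 ranges that did not meet over the 9 libraries. IER3, a regulator of cell survival, and MYC, a basic helix-loop-helix factor of growth, were the most abundant, at 3421 and 1612 normalized reads per kb at 0 h. Their ranges (2226 to 3744 and 1463 to 2232) just overlapped. JUNB (453 at 0 h) and JUND (425) followed, with overlapping ranges of 426 to 574 and 280 to 443 normalized reads per kb. JUN, FOSL1, FOS, FOSL2, ATF3, and EGR1 came last, from 146 down to 34.7 normalized reads per kb at 0 h. Each of these 6 overlapped its neighbour in the order, and the whole group stayed between 11.7 and 169. JUNB shares exon bases with HOOK2 on the opposite strand (mean value 8.16), and IER3 with the antisense gene IER3-AS1, which had no row. Since the sources used here do not say whether counting used strand, reads of such pairs cannot be told apart.

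**Figure D1:**
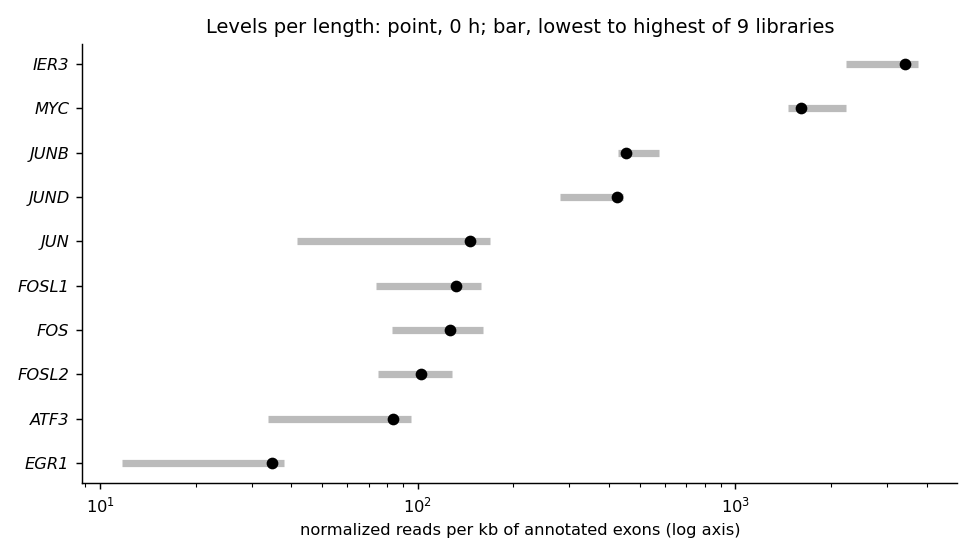
Normalized reads per kb of annotated exons (log axis) for each of the 10 genes, with a black point for the 0 h library and a grey bar from the lowest to the highest of the 9 libraries. IER3 and MYC stand above JUNB and JUND, and the other 6 genes lie at or below 169.

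Among the FOS subunits, which pair with JUN proteins, FOS (ENSG00000170345.9, chr14:75278774-75282230, forward strand) had a value of 8.68 at 0 h. At 6, 12, 24, and 48 h, miR-CTR gave 8.78, 8.53, 8.08, and 8.40 and miR-16 gave 9.02, 8.51, 8.46, and 8.61. FOS was thus higher with miR-16 at 3 of 4 times, and the 95% counting interval of the logFC left out 0 at these 3. The values of the other genes are given in the same order of times. Its late logFC, averaged over 24 and 48 h, was 0.295 ± 0.0794 (counting SE), under the 0.5 used to call a gene.

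FOSL1, which encodes FRA-1 (ENSG00000175592.8, chr11:65892049-65900573, reverse strand), had 7.97 at 0 h, 8.23, 8.13, 7.55, and 7.13 with miR-CTR, against 8.18, 7.82, 7.27, and 7.17 with miR-16. FOSL2, which encodes FRA-2 (ENSG00000075426.11, chr2:28392448-28417312, forward strand), had 9.52 at 0 h, 9.79, 9.66, 9.32, and 9.16 with miR-CTR, against 9.84, 9.44, 9.15, and 9.07 with miR-16. Both genes followed the same course with either mimic: highest at 6 h, and below 0 h at 24 and 48 h. Their late logFC between the mimics were −0.12 ± 0.116 and −0.13 ± 0.0602. At 12 h alone, the counting interval of both left out 0, with miR-16 lower by 0.31 and 0.22 on the log2 scale (logFC −0.31 and −0.22). Over the 9 libraries, FOSL1 and FOSL2 had the highest correlation of any pair of the 10 genes (Pearson r = 0.974, n = 9 libraries that share culture time, given as a description).

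JUN, the central subunit of AP-1 (ENSG00000177606.6, chr1:58780788-58784327, reverse strand), had 9.02 at 0 h. In the miR-CTR libraries it had 8.83, 8.04, 7.48, and 7.21 at 6, 12, 24, and 48 h, and in the miR-16 libraries 9.23, 8.44, 7.99, and 7.94. JUN was lower at each later time with miR-CTR, whereas with miR-16 the values at 24 and 48 h differed by 0.05. miR-16 stood above miR-CTR at all 4 times, by 0.40, 0.40, 0.51, and 0.73, and the counting interval left out 0 at each. The late logFC was 0.62 ± 0.103 (1.54-fold), from 169 reads or more per library.

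JUNB (ENSG00000171223.5, chr19:12791496-12793315, forward strand), a JUN protein that can restrain JUN activity, had 9.69 at 0 h, 9.60, 9.75, 9.72, and 10.03 with miR-CTR, against 9.74, 9.81, 9.74, and 9.87 with miR-16. JUND (ENSG00000130522.5, chr19:18279760-18281622, reverse strand), the JUN protein best known in resting cells, had 9.63 at 0 h, 9.29, 9.47, 9.27, and 9.69 with miR-CTR, against 9.23, 9.55, 9.03, and 9.69 with miR-16. Neither followed JUN: over the 9 libraries JUNB spanned 0.43 and JUND 0.66, against 2.02 for JUN. The median span was 0.66 for all genes, and 0.53 for genes at or above the median level, where JUNB and JUND lie. The late logFC of JUNB and JUND were −0.07 ± 0.048 and −0.12 ± 0.056.

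**Figure D2:**
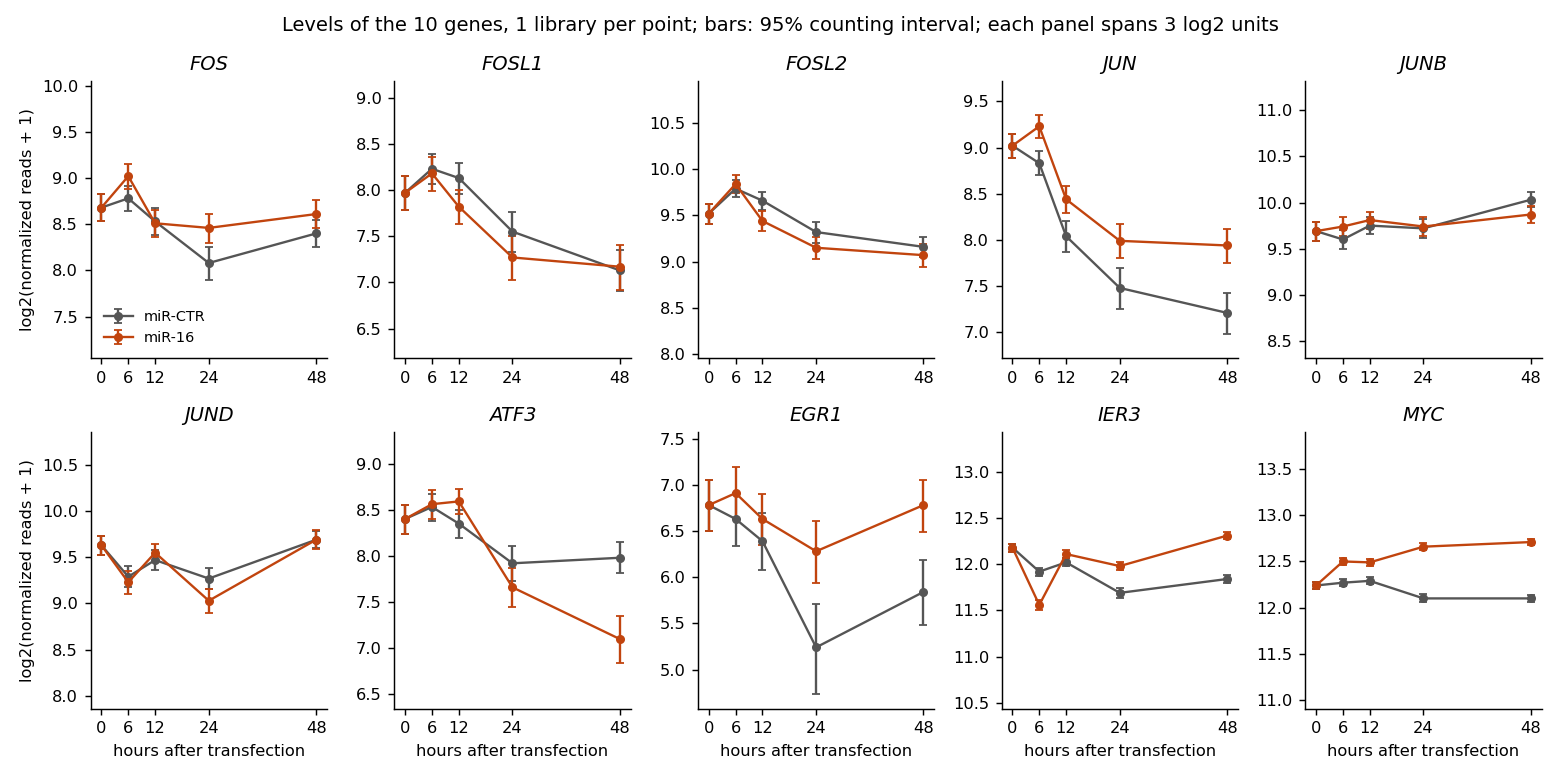
The log2 value of each of the 10 genes against hours after transfection, for miR-CTR (grey) and miR-16 (orange), with 1 library per point, the 0 h library shared by both, and bars for the 95% counting interval. All panels span 3 log2 units, and the lines part most for JUN, EGR1, ATF3, IER3, and MYC.

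ATF3, a leucine zipper factor of the stress response that pairs with JUN proteins (ENSG00000162772.16, chr1:212565334-212620777, forward strand), had a late logFC of the opposite sign. It had 8.40 at 0 h, 8.53, 8.35, 7.92, and 7.98 with miR-CTR, against 8.56, 8.59, 7.66, and 7.10 with miR-16. The mimics lay close at 6 h, miR-16 was above miR-CTR at 12 h, and below it at 24 and 48 h. The logFC was 0.03, 0.24, −0.26, and −0.88, with a counting interval from −1.2 to −0.58 at 48 h and from −0.55 to 0.02 at 24 h. The late logFC of −0.57 ± 0.104 (1.48-fold lower) therefore came mostly from 48 h. At 24 h alone ATF3 was not called.

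EGR1, a zinc finger factor induced by serum through SRF (ENSG00000120738.7, chr5:138465490-138469315, forward strand), had the lowest level per length and the largest late logFC of the 10 genes. It had 6.78 at 0 h, 6.63, 6.39, 5.24, and 5.84 with miR-CTR, against 6.91, 6.63, 6.28, and 6.78 with miR-16. With miR-CTR its value at 24 h rested on 35 reads, and with miR-16 its value at 48 h equalled the one at 0 h. The logFC was 0.28 and 0.24 at 6 and 12 h, with counting intervals that held 0, and 1.04 (0.46 to 1.68) and 0.94 (0.49 to 1.42) at 24 and 48 h. The late logFC was 0.99 ± 0.187 (1.99-fold).

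IER3 (ENSG00000137331.11, chr6:30743199-30744554, reverse strand) had 12.18 at 0 h, 11.92, 12.02, 11.69, and 11.84 with miR-CTR, against 11.56, 12.11, 11.98, and 12.31 with miR-16. It was lower with miR-16 at 6 h only, by a logFC of −0.36, and higher at 12, 24, and 48 h, by 0.09, 0.29, and 0.47. Its late logFC was 0.38 ± 0.023, below the call.

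MYC, on chromosome 8 (ENSG00000136997.17), had 12.24 at 0 h, 12.27, 12.29, 12.10, and 12.10 with miR-CTR, against 12.50, 12.49, 12.66, and 12.71 with miR-16. All 4 miR-16 values lay above the 0 h and all miR-CTR values, the only such case among the 10 genes, where 1.81% of all genes had it. The logFC was 0.23, 0.20, 0.56, and 0.61, each with a counting interval that left out 0, from 4178 reads or more per library. The late logFC of 0.585 ± 0.0198 equals 1.5-fold.

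In the early window, the mean of 6 and 12 h, none of the 10 genes was past 0.5 between the mimics, where 2.04% of all genes were higher and 1.45% lower with miR-16. In the late window, JUN, EGR1, and MYC were called higher, 3 of 10 against 7.76% of all genes, and ATF3 was called lower, 1 of 10 against 5.73%. JUN, EGR1, and MYC were past 0.5 at both 24 and 48 h. A filter on the lowest 25% of expression would leave out EGR1, which had the lowest mean value of the 10 genes. The median late logFC of the 10 genes was 0.1125, with 5 above and 5 below 0, and that of all genes was 0.005. The 6 others lay between −0.13 and 0.38. Ranked among all genes by late logFC, EGR1 stood at percentile 98.8, JUN at 95, MYC at 94.4, and ATF3 at 4.22. The late logFC exceeded the early one by 0.73 ± 0.236 for EGR1, 0.515 ± 0.033 for IER3, 0.37 ± 0.028 for MYC, and 0.22 ± 0.126 for JUN. For ATF3 the late logFC minus the early one was −0.705 ± 0.128. These errors cover counting alone. In a limma fit of late against early over all genes, none of the 10 passed an adjusted p of 0.05. Only 3 of all 14839 genes did, so that this count says little about the 10. At an unadjusted p of 0.05 in the same fit, 4 of the 10 genes passed, 1 of them (ATF3) as lower late than early. The share of all genes passing so, in either direction, was 14.4%.

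The mimics were also compared over all 4 times, paired by time, with limma fitted to all genes. This fit treats the 4 times as replicates of 1 difference, although they follow one another and the logFC of several genes grew with time. JUN was higher with miR-16 at 4 of 4 times (mean logFC 0.51, adjusted p = 0.00965), as were MYC (0.40, adjusted p = 0.0140) and EGR1 (0.625, adjusted p = 0.0412). These 3 of the 10 genes passed an adjusted p of 0.05 as higher, against 4.93% of all genes, and none passed as lower, against 5.73%. At an unadjusted p of 0.05 in limma, 4 of the 10 genes passed, none of them lower. The share of all genes passing so, in either direction, was 30.4%. FOS had a mean logFC of 0.2025 (adjusted p = 0.137), and ATF3, with 2 times above and 2 below 0, had −0.2175 (adjusted p = 0.374). Without the 24 h pair no gene of the table passed in limma (2500 genes, 3 of the 10 among them, did at an unadjusted p), and EGR1 also did not pass without the 12 h or the 48 h pair (adjusted p = 0.0627 and 0.0709).

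**Figure D3:**
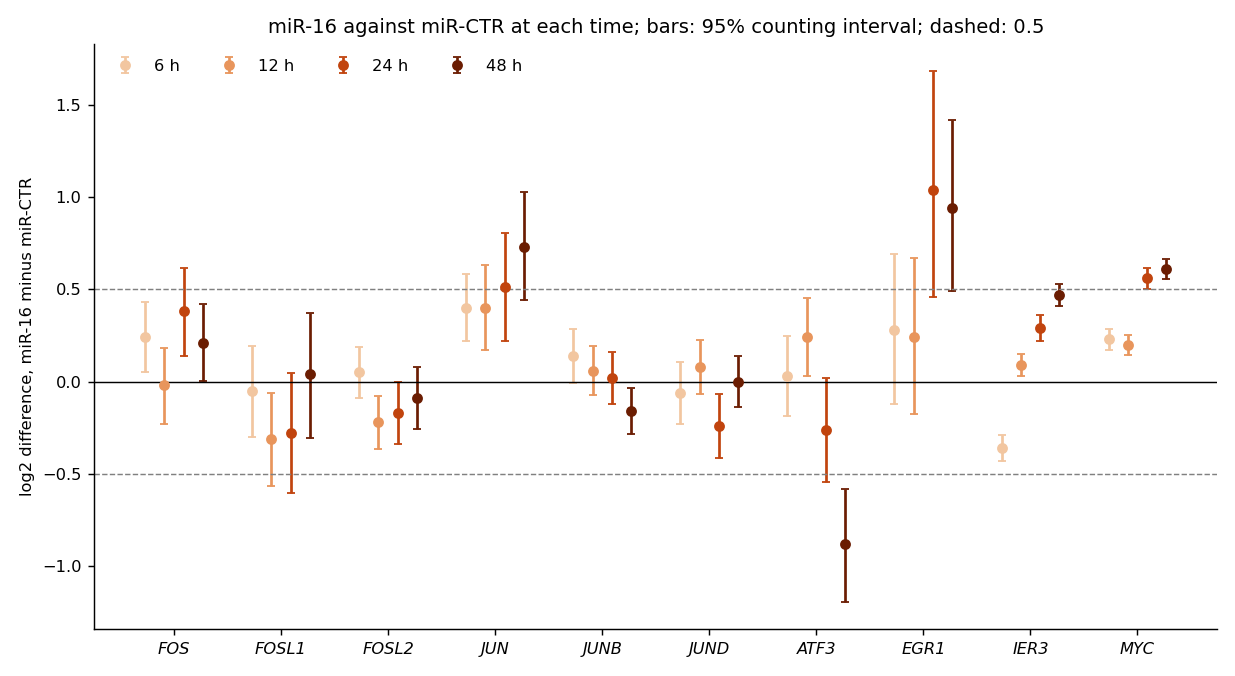
The logFC of miR-16 against miR-CTR for each of the 10 genes at 6, 12, 24, and 48 h (light to dark), with bars for the 95% counting interval and dashed lines at 0.5 on either side of 0. JUN, EGR1, and MYC are above 0 at all 4 times, and ATF3 reaches −0.88 at 48 h.

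Each mimic was also compared with the cells before transfection. These comparisons use the same miR-CTR and miR-16 libraries as those above and share the 0 h library, so their values are set side by side. At 6 h the 10 genes lay from −0.34 (JUND) to 0.27 (FOSL2) around 0 h with miR-CTR, and from −0.62 (IER3) to 0.34 (FOS) with miR-16. With miR-CTR in the early window, JUN alone was called lower (1 of 10, logFC −0.585, against 3.25% of all genes), and no gene was called higher (background 3.08%). With miR-16 none was called, where 2.94% of all genes were higher and 3.05% lower. In the late window with miR-CTR, FOSL1 (−0.63), JUN (−1.675), and EGR1 (−1.24) were called lower, 3 of 10 against 9.79%, and none higher, against 11%. FOSL1 was not past 0.5 at 24 h (−0.42). In the late window with miR-16, FOSL1 (−0.75), JUN (−1.055), and ATF3 (−1.02) were called lower, 3 of 10 against 11.7%, and none higher, against 14.1%. In bulk RNA, fewer expressing cells and less RNA per cell cannot be told apart.

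The 4 genes called between the mimics differed in their course from 0 h. JUN was below 0 h with both, by a logFC of −1.675 with miR-CTR and −1.055 with miR-16. EGR1 was called below 0 h with miR-CTR but stood at −0.25 with miR-16. ATF3 was at −0.45 with miR-CTR and −1.02 with miR-16. MYC was at −0.14 with miR-CTR and 0.445 with miR-16, and it was the only one of the 10 with opposite signs. FOS (−0.44 and −0.145) and IER3 (−0.415 and −0.035) were, like EGR1, nearer to 0 h with miR-16, without passing 0.5. Of the 10 genes, 9 were below 0 h late with miR-CTR and 8 with miR-16, with a median of −0.4275 and −0.26 against 0 and −0.005 for all genes. Of the 7 melanocyte markers, all but TYRP1 lay above 0 h late with both mimics (median 0.325 with miR-CTR and 0.515 with miR-16), and their part in these values was not tested.

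**Figure D4:**
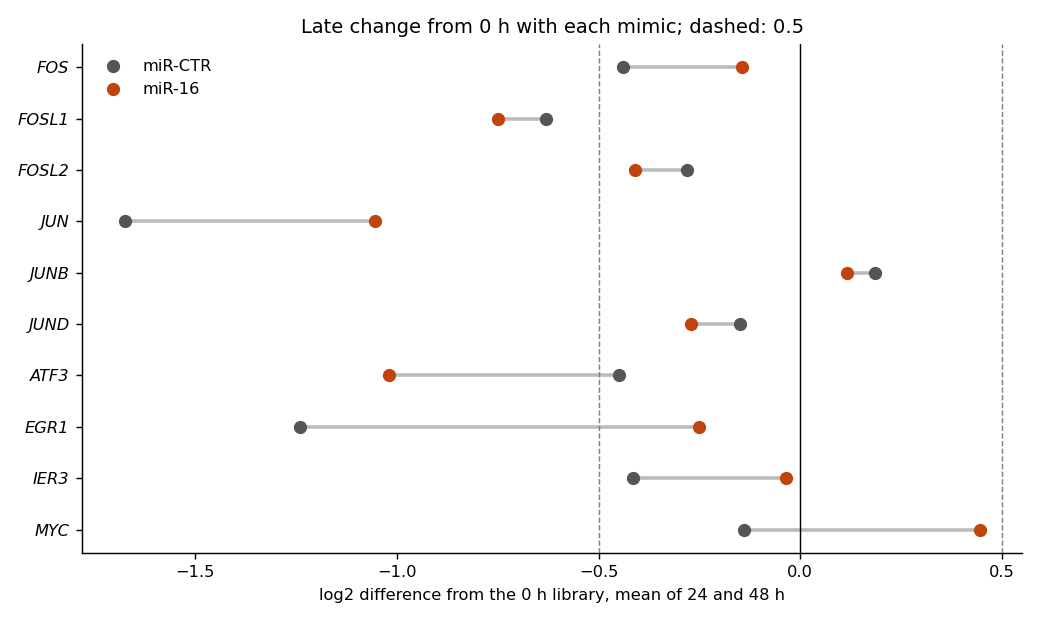
The mean log2 difference of 24 and 48 h from the 0 h library for each of the 10 genes, with miR-CTR in grey and miR-16 in orange, joined by a line, and dashed lines at 0.5 on either side of 0. JUN and EGR1 reach −1.675 and −1.24 with miR-CTR, ATF3 reaches −1.02 with miR-16, and MYC crosses 0.

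JUN and EGR1 were higher together with miR-16 while ATF3 was lower, so their promoters are shown, from RefSeq on GRCh38.p14, with 250 bases before and 50 after the annotated start. Capitals mark matches on either strand. The CArG box, the site of SRF, was searched as CCWWWWWWGG, where W is A or T. Also marked are the cyclic AMP response element TGACGTCA, the AP-1 site TGACTCA, and its JUN-promoter form TGACATCA. The EGR1 window (chr5:138465229-138465528, forward strand) held 2 CArG boxes. The JUN window (chr1:58783998-58784297, reverse strand) and the upstream ATF3 window (chr1:212565157-212565456, forward strand) each held 1 TGACATCA. No match overlapped another.
EGR1: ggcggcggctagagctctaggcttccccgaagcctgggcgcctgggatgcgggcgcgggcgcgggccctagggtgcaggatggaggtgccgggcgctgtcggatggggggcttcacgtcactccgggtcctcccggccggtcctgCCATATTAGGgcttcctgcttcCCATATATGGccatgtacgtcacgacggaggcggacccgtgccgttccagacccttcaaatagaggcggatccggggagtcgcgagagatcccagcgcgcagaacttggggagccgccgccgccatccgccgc
JUN: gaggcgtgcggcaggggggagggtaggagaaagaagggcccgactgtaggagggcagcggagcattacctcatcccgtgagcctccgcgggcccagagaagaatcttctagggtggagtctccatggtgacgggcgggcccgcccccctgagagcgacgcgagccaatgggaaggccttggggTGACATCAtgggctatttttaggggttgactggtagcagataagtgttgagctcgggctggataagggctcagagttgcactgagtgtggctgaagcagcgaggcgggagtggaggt
ATF3: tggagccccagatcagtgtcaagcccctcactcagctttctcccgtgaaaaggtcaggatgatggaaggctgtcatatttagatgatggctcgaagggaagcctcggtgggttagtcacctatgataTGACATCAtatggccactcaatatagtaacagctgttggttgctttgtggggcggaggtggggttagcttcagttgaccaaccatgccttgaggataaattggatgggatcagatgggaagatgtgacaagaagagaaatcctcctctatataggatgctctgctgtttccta
Of 35116 promoter windows of this length, 1.29% held a CArG box, 2.61% TGACATCA, 1.85% TGACGTCA, and 4.95% TGACTCA. The windows of FOS, JUNB, and the downstream start of ATF3 held none of these, JUND held 1 TGACGTCA, and FOSL2 held 1 TGACTCA just after its start. Inexact matches and sites outside the windows were not searched, so a window without a match does not show that a gene lacks such a site. FOSL1, IER3, and MYC were not analysed here. The JUN window and the upstream ATF3 window held the same 8 letters. Which ATF3 start these cells used was not examined, and any part of these sites in the logFC was not tested.

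Of 13 other AP-1 and MAF leucine zipper factors, 11 were present, and 4 were called higher and 1 lower late with miR-16, where 7.76% of all genes were higher and 5.73% lower (median logFC 0.085, all genes 0.005). CREB5, which binds the cyclic AMP response element, had 7.96 and 8.27 with miR-CTR against 8.81 and 9.86 with miR-16 at 24 and 48 h, a late logFC of 1.22 ± 0.0739. FOSB, the fourth FOS protein, had a late logFC of 0.76 ± 0.274 from as few as 21 reads, and JDP2, a repressor that pairs with JUN, had 0.605 ± 0.106. MAFK, a small MAF protein, was lower, with −0.675 ± 0.0557. Like JUN, FOSB and JDP2 were farther below 0 h with miR-CTR (late logFC −1.005 and −1.17) than with miR-16 (−0.245 and −0.565).

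Of 34 other immediate early genes, 32 were present, with 5 called higher (7.76% of all genes) and 2 lower (5.73% of all genes, a share close to that of the list) and a median logFC of 0.0275. CTGF and CYR61, matricellular proteins induced by SRF and YAP, had the largest logFC. CTGF had 10.67 at 0 h, 8.34 and 7.02 with miR-CTR at 24 and 48 h, against 10.70 and 10.29 with miR-16, a late logFC of 2.815 ± 0.0769. CYR61 had 10.55 at 0 h, 8.78 and 6.95 with miR-CTR, against 9.77 and 8.93 with miR-16, a late logFC of 1.485 ± 0.0813. EGR3, a relative of EGR1, had 1.23 ± 0.392 from 10 reads or more per library. EGR2 (1.10) and BTG1 (0.52), the others called higher, were named after their values were seen. Of the EGR genes, EGR1, EGR2, and EGR3 were thus past 0.5 at both late times, and EGR4 had no row. GADD45B, a stress gene, was lower with a late logFC of −1.165 ± 0.0809, as was TNFAIP3, a brake on NF-κB, with −0.94 ± 0.159. Other immediate early genes gave small logFC, among them DUSP1 (0.19), IER2 (0), NR4A1 (0.26), and NR4A3 (0.33), which were picked after their values were seen.

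Of the 21 genes upstream (SRF, its cofactors, the ternary complex factors, CREB1, and MAP kinases), all were present. None was called higher and 2 were called lower, beside 7.76% and 5.73% of all genes, counts too small to set the list apart. The 2 were MAPK8 (JNK1, −0.625) and MAP2K1 (MEK1, −0.515). Neither was past 0.5 at both times. The median late logFC of this list was −0.145 (all genes 0.005), and SRF itself had 0.08.

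Of 25 AP-1 target genes, 15 were present, with 3 called higher and 1 lower, beside 7.76% and 5.73% of all genes (median logFC −0.045). HMGA2, a chromatin protein, was higher, with a late logFC of 0.77 ± 0.0408, and CCND1 (cyclin D1) was lower, with −0.63 ± 0.0125. The paper also counts CCND1 among the miR-16 targets known from the literature, and its logFC was −0.41 at 6 h and −0.43 at 12 h. What lowered CCND1 was not tested. MMP1 and CXCL8, the other genes called higher, rested on as few as 0 and 16 reads. Among the 14 present of 15 genes of the MYC and MAX network, MXD4 (0.57) was called higher and FBXW7 (−0.575), which marks MYC for degradation, was called lower, neither at both times. Of 20 MYC target genes, 19 were present and none was called in either direction, with a median late logFC of 0.10. Compared with 0 h, the same 19 had a late median of −0.535 with miR-CTR, with 11 called lower (9.79% of all genes), and of −0.365 with miR-16, with 5 called lower (11.7% of all genes), while MYC stood at −0.14 and 0.445.

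**Figure D5:**
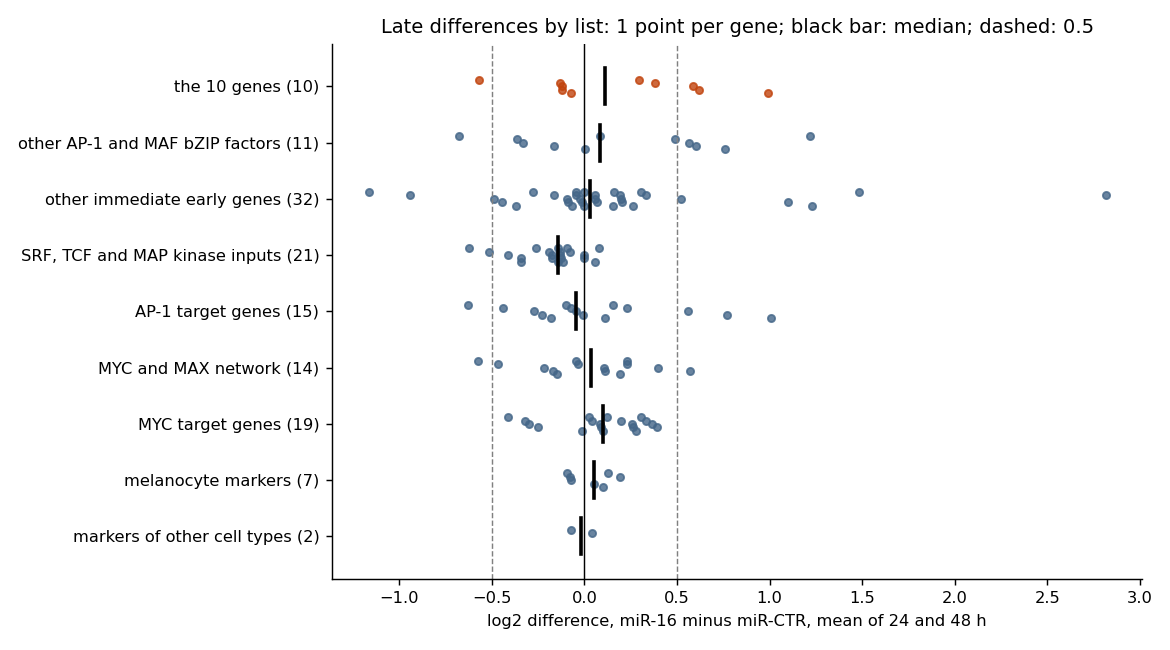
The late logFC of miR-16 against miR-CTR, 1 point per gene, for the 10 genes (orange) and the other lists (blue), with the number of genes present in parentheses, a black bar at the median, and dashed lines at 0.5 on either side of 0. The point farthest right is CTGF at 2.815, and the list of SRF and MAP kinase inputs has the lowest median, −0.145.

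Over the 9 libraries, JUN spanned 2.02, EGR1 1.67, ATF3 1.49, and FOSL1 1.1 on the log2 scale. These 4 of the 10 genes spanned over 1, as did 25% of all genes. JUN, EGR1, and FOS had values that moved together (r = 0.885 for FOS and EGR1, 0.842 for FOS and JUN, and 0.793 for JUN and EGR1). They did not stand apart from the others in this. JUN had an r of 0.773 with FOSL1 and 0.752 with FOSL2, and ATF3 had 0.842 with FOSL2 and 0.839 with FOSL1. JUNB ran against JUN (−0.642) and FOSL1 (−0.714). Among 7415 genes at or above the median level, the 2 most alike to JUN were PITPNB (0.983) and DUS3L (0.982) (r in parentheses). FOSL1 was close to EIF3B (0.980). The pattern of ATF3 was closest to those of CDKN3 (0.983), a phosphatase of the cell cycle, and KIF14 (0.981), a mitotic kinesin. EGR1 was nearest to CTD-2033A16.2 (0.962) and ARL2BP (0.957). All these r are descriptions over 9 libraries of 2 time courses that share their start.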

How the data were processed

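PolyA RNA sequencing of MP41 cells gave 9 libraries, 1 per condition, with no replicates. The authors deposited log2 values with 2 decimals, in the form log2(reads / size factor + 1), for 14839 genes. Per the labels, the submitters' processing notes name FastQC, STAR 2.4.0a, featureCounts, Subread 1.5.0-p3, and the build GRCh38 (hg38), without roles. Column codes T0, T1, T2, T4, and T5 were read as 0, 6, 12, 24, and 48 h. Reads were recovered from the step of each library: 100% of values of up to 20 reads were whole within 0.1. Counting SEs and exact 95% Clopper-Pearson intervals came from these reads; they cover counting error only.

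The logFC was a difference of deposited values, early (6 and 12 h) or late (24 and 48 h), called past 0.5, a threshold and time windows that the study uses; averaging within a window was chosen here. Added after seeing the data, limma 3.58.1 (R 4.3.3) was fitted to the 4 differences between the mimics paired by time, with a trend in mean expression and Benjamini-Hochberg adjustment. The 10 genes and the lists were chosen with earlier results of these data known. Named from each list were genes past 0.5 at both late times, at most 3 per direction, and for genes spanning over 1, the 2 most correlated genes. Some genes under this rule are not reported here. Calling and recovery were tested on simulated data. Alternatives were a 1.5-fold threshold, quantile or median scaling, a pseudocount of 10, both times, single times, and a filter on the lowest 25% of expression. Python 3.11.15, numpy 2.4.6, pandas 2.3.3, scipy 1.17.1, and matplotlib 3.10.9 were used. Positions came from GENCODE 29, and promoters and miR-16 from RefSeq (GRCh38.p14).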

Additional observations from a re-analysis of the deposited data

Results flagged for a closer look

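ATF3 had a logFC between the mimics above 0 at both 6 and 12 h and below 0 at both 24 and 48 h. The late logFC minus the early logFC was −0.705, with a counting SE of 0.128. In a limma fit of the 4 differences of each gene, late against early, over all genes, it had an unadjusted p of 0.00571 and an adjusted p of 0.200, so that it did not pass the correction. At 6 and 24 h the counting interval of the ATF3 logFC held 0.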

How the results depend on the processing

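Of 96 counts recomputed, 89 stayed within 1.5 times their value. These 89 include many counts of 0 that stayed 0, and counts that went from 3 to 2. Under other scalings or a pseudocount of 10, 180 differences of the 10 genes gave 0 changes of sign of a called gene and 0 shifts beyond counting error. Median scaling shifted a difference of the 10 genes by at most 0.02, so its part of the 180 was a weak check. For genes called lower with miR-16 late against miR-CTR (1, ATF3), the count was 0 at 1.5-fold, 0 when both times were required, and 0 at 24 h alone. For genes lower with miR-CTR than at 0 h early (1, JUN), it was 0 when both times were required and 0 at 6 h alone. For genes lower with miR-16 than at 0 h early (0), it was 1 at 6 h alone (IER3) and 1 at 12 h alone (JUN). At single times, 34 of 120 differences moved beyond counting error. MYC, at 0.585, sits on the 1.5-fold threshold to within the rounding of the deposited values. Without the lowest 25% of expression, which holds EGR1, the 3 genes higher late with miR-16 and the 3 lower late with miR-CTR than at 0 h became 2 each, and the second count was also 2 (without FOSL1) when both times were required. In the limma fit paired by time, chosen after seeing the data, leaving out 1 time gave 0 (without 24 h, where 3 of the 10 genes passed at an unadjusted p) to 4 (without 6 h) genes higher with miR-16, and 0 lower. The labels carry no replicate numbers, and no other pairing was tried. The variation between cultures is not known, and EGR1, with as few as 35 reads, has the widest counting error of the 10 genes.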
